A study of Mus musculus with 6 samples.

Results

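Toll-like receptor (TLR) signalling genes were examined in mouse embryonic stem (ES) cells that lack Morc3, a MORC family ATPase that the study examined as a silencing factor of endogenous retroviruses. The group held 10 of the 24054 gene rows counted, namely Tlr2, Tlr3, Myd88, Irak1, Irak2, Irak3, Irak4, Tollip, Traf6 and Helb. The genes were chosen from earlier results of the same ko against wild-type comparison, in which Irak3, Tlr2 and Helb were among the genes called higher in ko, and the others were taken from the same pathway. Helb is no pathway gene and was included as a neighbour of Irak3 on chromosome 10. For these 10 genes, the levels and fold changes are therefore given as a description without p-values.

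Total RNA depleted of ribosomal RNA was sequenced from ES cells of 2 genotypes, namely 3 clones with a knock-out (ko) of Morc3 and 3 wild-type cultures. The ko libraries are titled KO27-1, KO27-2 and KO27-3 and are called clones 1, 2 and 3. Each ko clone is a cell line grown from a single cell after Cas9 treatment of the wild-type line wt26, so that differences between ko and wild type include differences between clones. The wild-type libraries are titled with WT26 and p42, p43 or p56, and what the letter p stands for is not given in the labels. All 6 cultures were grown without feeder cells on gelatin in medium with serum and LIF, a cytokine that keeps ES cells undifferentiated, and no TLR ligand is named in the labels.

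TLRs sit in the membrane of immune and other cells and bind molecules of microbes. Most of them recruit the adaptor MyD88, which assembles the kinases IRAK4, IRAK1 and IRAK2, and these engage the ubiquitin ligase TRAF6 to activate NF-kB and MAP kinases. IRAK3, also called IRAK-M, is a family member without strong kinase activity that is best known from macrophages, where it restrains this cascade.

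The sense-strand gene counts amounted to 10740618 to 14123131 per library. Of the 24054 genes, 12222 passed the filter on low counts and were tested. 156 of the tested genes (1.28%) were called at an adjusted p under 0.01 in edgeR's quasi-likelihood test, and 105 of them (0.859%) were higher in ko. The groups did not overlap, meaning that every ko library lay on the same side of every wild-type library, for 19.9% of the tested genes, and all ko libraries lay above all wild-type libraries for 9.67%. The targeted gene Morc3 was at 77.8, 137.9 and 134.6 CPM (a count relative to the TMM-scaled size of its library) in ko clones 1, 2 and 3 and at 276.8, 272.0 and 302.2 CPM in p42, p43 and p56. Morc3 transcripts were thus lower in each ko library but still counted, with a log2 fold change of -1.28 (SE 0.16, n = 3 per group, adjusted p = 0.00084 by edgeR). The pluripotency genes Pou5f1, Nanog and Sox2 had log2 fold changes of 0.04, 0.09 and -0.04 with adjusted p of at least 0.733 (edgeR). Of the 15 pluripotency markers, 13 had a higher mean in ko, 4 had groups that did not overlap and 4 had an unadjusted p under 0.05. None of the 15 was called by edgeR, while DESeq2 and edgeR without a filter each called 1. Dppa5a, named after its values were seen, came nearest with a log2 fold change of 0.43 (adjusted p = 0.0231 by edgeR). The summed level of the list was 7088 to 7235 CPM in ko and 6549 to 6621 CPM in wild type, and its part in the results was not tested. Transcript levels in bulk RNA do not tell whether fewer cells express a gene or each cell holds less of its RNA.

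Irak3 has 2 annotated transcription starts on the minus strand of chromosome 10, and the sequences ahead of both are shown because Irak3 differed most among the 10 genes. The sequence ahead of Helb is shown as that of its neighbour on the same strand. The sequences are from the RefSeq promoter table for GRCm38, run 5′ to 3′ on the minus strand and hold the bases before the start up to the first annotated exon, within 250 bases. Capitals mark CG dinucleotides, the sites of DNA methylation.
Irak3, start at 120201597, chr10:120201660-120201847: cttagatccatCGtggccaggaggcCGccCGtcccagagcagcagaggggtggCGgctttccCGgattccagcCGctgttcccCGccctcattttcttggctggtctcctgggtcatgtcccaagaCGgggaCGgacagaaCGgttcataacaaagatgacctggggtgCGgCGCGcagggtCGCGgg
Irak3, start at 120202130, chr10:120202131-120202380: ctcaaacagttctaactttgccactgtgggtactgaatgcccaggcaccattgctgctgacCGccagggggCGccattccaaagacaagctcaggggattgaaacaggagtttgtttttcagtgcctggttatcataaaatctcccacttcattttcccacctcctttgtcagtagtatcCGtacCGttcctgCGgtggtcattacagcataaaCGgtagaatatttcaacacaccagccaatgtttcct
Helb, start at 120112965, chr10:120113011-120113215: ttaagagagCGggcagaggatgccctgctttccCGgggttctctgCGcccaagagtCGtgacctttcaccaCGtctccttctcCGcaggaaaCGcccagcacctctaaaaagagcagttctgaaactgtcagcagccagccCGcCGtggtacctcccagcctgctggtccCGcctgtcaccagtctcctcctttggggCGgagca
The Irak3 sequence nearer to the coding exons carried 15 CG in 188 bases, the more distant one 6 in 250 and the Helb sequence 11 in 205. Over the whole 250 bases, the nearer Irak3 start had 19 CG and 66.4% G and C, and the distant one had 6 CG and 47.6%. The median over 32851 mouse promoter windows of this length was 6 CG. The NF-kB motif GGGNNNNNCC, searched on both strands and free to overlap CG dinucleotides, was found 2 times in the 250 bases of the nearer Irak3 start, 0 times at the distant start, 3 times for Helb and 2 times for Tlr2. Neither Irak3 match lay in the printed bases. Irak1, Traf6 and Tlr3 also had 2 matches, Irak4 and Tollip 1, and Irak2 and Myd88 0. The motif was present in 45.8% of all windows, so that its presence does not set these genes apart. The counts are per gene and do not tell which Irak3 start was used.

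Among the receptors, Tlr2 was the only one with enough counts to be tested. TLR2 pairs with TLR1 or TLR6 at the cell surface and recognizes bacterial lipoproteins. Tlr2 (chromosome 3, 83836272 to 83841824 on GRCm38, minus strand) was at 15.8, 16.0 and 16.9 CPM in ko clones 1, 2 and 3 and at 3.26, 3.15 and 3.40 CPM in p42, p43 and p56. The ko clones lay close together and far above all wild-type libraries, whose values were also narrow. The means were 16.2 ± 0.579 CPM in ko and 3.27 ± 0.124 CPM in wild type (SD, n = 3), a log2 fold change of 2.31 (SE 0.13), which ranks 15th in size among the increases of the 12222 tested genes. From the 538 and 134 counts behind these values, the ratio was 4.97 (95% binomial interval 4.10 to 6.05, which covers counting error only).

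Tlr3, which detects double-stranded RNA in endosomes and signals through the adaptor TRIF instead of MyD88, was close to undetected. It had 1, 1 and 4 counts in ko clones 1, 2 and 3 and 2 counts in each wild-type library, and it was not tested. The count ratio of 1.24 had a 95% interval of 0.331 to 4.63, so that a difference of several fold in either direction was not detectable at this depth. No count was seen in any library for Tlr4, Tlr8, Tlr9, Tlr11 and Tlr12. A count of 0 over the 3 libraries allows up to 0.0904 CPM in ko and 0.0731 CPM in wild type, at 3 counts per group. The partners of TLR2 were low in both groups, with 0 counts in each ko library and 2, 1 and 1 in p42, p43 and p56 for Tlr1. Tlr6 had 0, 0 and 2 counts in ko clones 1, 2 and 3 and 3, 2 and 0 in p42, p43 and p56. Tlr2 was thus the only one of the 12 listed TLR genes with over 7 counts in any library.

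Myd88, the adaptor of most TLRs and of the interleukin-1 receptors, was at 11, 9.62 and 11.8 CPM in ko clones 1, 2 and 3 and at 12.2, 10.4 and 10.6 CPM in the wild-type libraries. The groups overlapped, and the log2 fold change was -0.04 (SE 0.13).

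Of the 4 IRAK genes, Irak3 had the largest difference between the groups. Irak3 (chromosome 10, 120141648 to 120202130, minus strand) was at 17, 20.2 and 19.9 CPM in ko clones 1, 2 and 3. In p42, p43 and p56 it was at 1.01, 0.490 and 1.16 CPM, which rests on 14, 7 and 15 counts. All ko clones lay far above all wild-type libraries, and the wild-type libraries varied more on a log scale (SD of 0.55 log2 units against 0.14 in ko). The means were 19.03 ± 1.77 CPM in ko and 0.887 ± 0.352 CPM in wild type (SD, n = 3), a log2 fold change of 4.42 (SE 0.21), the 5th largest increase among the tested genes. The 632 and 36 counts gave a ratio of 21.7 (95% interval 15.5 to 31.3, counting error only).

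Irak4, the kinase that acts first after MyD88, was at 1.29, 1.77 and 1.91 CPM in ko clones 1, 2 and 3 and at 2.53, 3.50 and 4.09 CPM in p42, p43 and p56. All ko values lay below all wild-type values, with means of 1.66 ± 0.321 and 3.38 ± 0.786 CPM (SD, n = 3) and a log2 fold change of -1.02 (SE 0.27). It rested on 55 counts in ko and 138 in wild type, a ratio of 0.493 (95% interval 0.354 to 0.679, counting error only), and it was not called. Irak1, a kinase that IRAK4 activates, was at 14.41, 14.57 and 13.98 CPM in ko clones 1, 2 and 3 and at 15.28, 15.33 and 16.68 CPM in wild type. The Irak1 groups did not overlap either, but the log2 fold change was only -0.14 (SE 0.10), and Irak1 was not called. Irak2, which sustains the later signal, was at 7.30, 9.53 and 9.62 CPM in ko clones 1, 2 and 3 and at 7.75, 9.38 and 9.19 CPM in wild type. Its groups overlapped, with a log2 fold change of 0.01 (SE 0.15).

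Traf6, the ubiquitin ligase downstream of the IRAK kinases, was at 26.9, 25.0 and 21.9 CPM in ko clones 1, 2 and 3 and at 23.3, 24.4 and 22.6 CPM in wild type. The groups overlapped, with a log2 fold change of 0.07 (SE 0.10). Tollip, an adaptor that holds IRAK1 back, was at 41.5, 41.5 and 44.1 CPM in ko clones 1, 2 and 3 and at 43.3, 41.8 and 37.8 CPM in wild type. Here too the groups overlapped, and the log2 fold change was 0.05 (SE 0.08).

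In all, 3 of the 9 tested genes of the group were called (Irak3, Tlr2 and Helb) and 5 had groups that did not overlap (the same 3, Irak1 and Irak4), beside 1.28% and 19.9% of all tested genes. The 3 called genes were already called in the earlier results of this comparison from which the group was chosen. These counts are therefore no test of the group. The plot of the transcript levels shows the distance of Irak3 and Tlr2 from the other pathway genes.

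**Figure D1:**
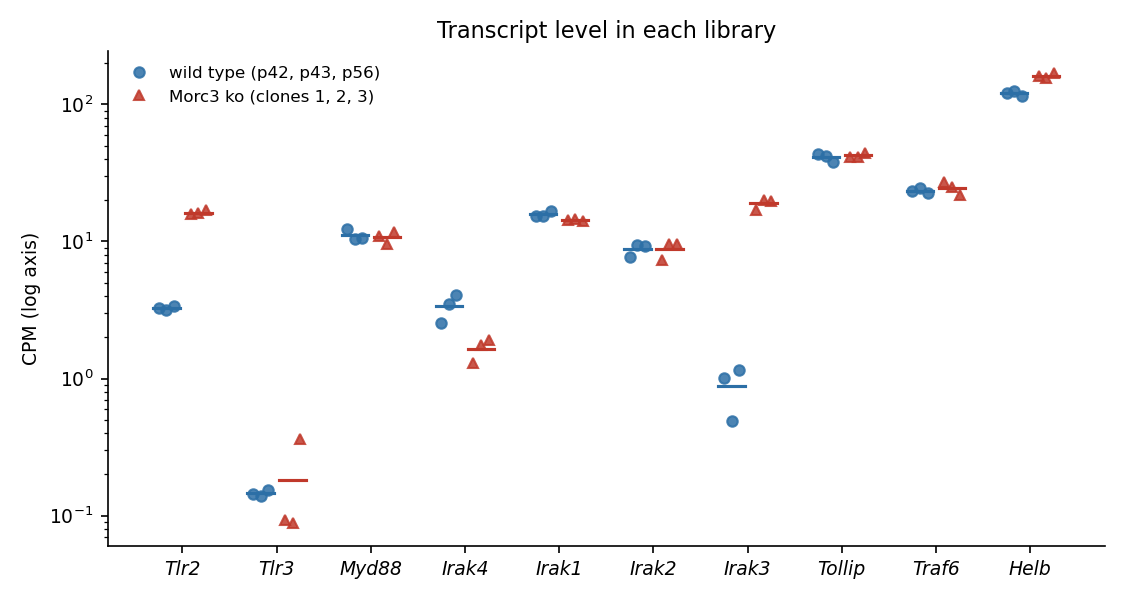
Level of the 10 genes in each library, in CPM on a log axis. Circles are the wild-type libraries p42, p43 and p56 and triangles the ko clones 1, 2 and 3, from left to right, and short lines are group means. Irak3 and Tlr2 have ko values far above wild type, Irak4 has all ko values below wild type, and Myd88, Irak2, Tollip and Traf6 overlap between groups.

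Levels of different genes were compared as CPM per kb of annotated exon (the union of the exons of a gene). In wild type, the order from high to low was Helb, Tollip, Myd88, Irak1, Traf6, Irak2, Tlr2, Irak4, Irak3 and Tlr3, and the ranges of no adjacent pair of genes overlapped. Irak3 was the 9th of the 10 genes at 0.241 ± 0.0956 CPM per kb and Tlr2 the 7th at 1.09 ± 0.0411 CPM per kb (SD, n = 3). In ko, Tlr2 was the 3rd at 5.38 ± 0.192 CPM per kb and Irak3 the 4th at 5.18 ± 0.480 CPM per kb, above Myd88 at 4.19 ± 0.427 CPM per kb. The ranges of Tlr2 and Irak3 overlapped in ko, as did those of Traf6 and Irak1, and with the length of the longest transcript in place of the exon union Irak3 and Tlr2 changed places. The order of the other 8 genes among themselves was the same in both groups, except that Traf6 and Irak1 changed places in ko.

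Within the IRAK family, the makeup of the transcript pool differed between the groups. Irak3 made up 48.2%, 49.5% and 49.5% of the summed level of the 4 Irak genes per kb in ko clones 1, 2 and 3. In p42, p43 and p56 its share was 4.77%, 2.15% and 4.67%. The sum over the 4 genes was 10.5 ± 0.825 CPM per kb in ko and 6.25 ± 0.487 CPM per kb in wild type (SD, n = 3). Without Irak3 the sum was 5.36 ± 0.345 CPM per kb in ko and 6.003 ± 0.471 CPM per kb in wild type, and the groups overlapped. Irak1 was the most abundant Irak transcript in every wild-type library and Irak3 in every ko library.

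**Figure D2:**
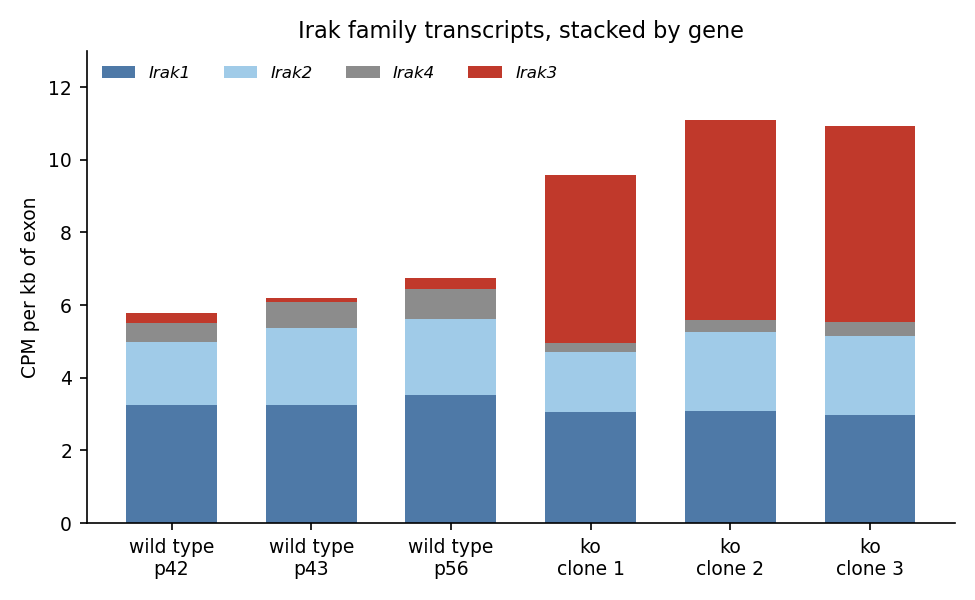
Level of the 4 Irak genes in each library, in CPM per kb of exon, stacked. Irak3 takes 48.2% to 49.5% of the bar in the ko clones and 2.15% to 4.77% in wild type, while Irak1, Irak2 and Irak4 together reach between 4.97 and 6.43 CPM per kb in the 6 libraries.

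To see whether other parts of the pathway differed, 105 further genes from 9 lists were examined, of which 63 were tested, 22 had counts below the filter and 20 had no count in any library. None of the 63 was called by edgeR at an adjusted p under 0.01, where 1.28% of all tested genes were called. None was called at an adjusted p under 0.05 in the same test either, a threshold that 2.71% of all tested genes passed. 7 of the 63 had an unadjusted p under 0.05, beside 1746 of all 12222 tested genes. At an adjusted p under 0.01, DESeq2, limma-voom and edgeR without a filter also called 0. Of the 63, 31 had a higher mean in ko and 32 a lower one, with a median log2 fold change of -0.01 (-0.0001 over all tested genes), and 11 of the 63 had groups that did not overlap, beside 19.9% of all tested genes.

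By role, the TLR trafficking factors Unc93b1, Hsp90b1 and Cnpy3 had log2 fold changes of -0.13, 0.07 and -0.01, and none of these 3 genes of the receptor list was called. In the interleukin-1 receptor family, 0 of 3 tested genes were called. Sigirr, a receptor that dampens TLR and interleukin-1 signals, was at 50.08, 48.99 and 42.02 CPM in ko clones 1, 2 and 3 and at 33.96, 40.75 and 38.68 CPM in wild type. All ko values lay above all wild-type values, but with a log2 fold change of 0.32 (SE 0.10) Sigirr was not called (adjusted p = 0.136, edgeR). Its adjusted p ranged between 0.0377 (edgeR without wild-type p56) and 0.436 (edgeR without ko clone 2) over the alternative settings. None of the 4 tested adaptors other than Myd88 was called, among them Tirap, which bridges TLR2 and MyD88, with a log2 fold change of -0.20 (SE 0.16, adjusted p = 0.647 by edgeR).

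Among the other kinases, 0 of 10 were called. Map3k7, which encodes TAK1, and Chuk, which encodes IKK alpha, differed by 0.04 (SE 0.07) and 0.01 (SE 0.07) log2 units. Ikbke, a kinase that acts on IRF transcription factors and was named after its values were seen, had the lowest log2 fold change of the 63 genes at -0.87 (SE 0.31) and was not called (adjusted p = 0.199, edgeR). The ubiquitin ligase list had 0 of 8 genes called, with log2 fold changes between -0.17 and 0.12, among them the ubiquitin-chain enzymes Ube2n, Rbck1 and Rnf31. The MAP kinase list had 0 of 9 called, with log2 fold changes between -0.27 and 0.48.

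The transcription factor list had 0 of 7 genes called, and the NF-kB subunit genes Nfkb1 and Nfkb2 differed by -0.16 (SE 0.07) and -0.01 (SE 0.12) log2 units. Of the negative regulators other than Irak3 and Tollip, 0 of 13 were called. Rnf216, a ubiquitin ligase that turns over TLRs, came nearest to the threshold, with a log2 fold change of 0.35 (SE 0.09, adjusted p = 0.0587 by edgeR). Its adjusted p was 0.0394 with DESeq2, 0.0339 by edgeR without a filter and 0.0327 by edgeR without wild-type p56. It rose to 0.280 by edgeR without ko clone 3. The NF-kB target list had 26 genes, of which 10 were tested, 5 had counts below the filter and 11, including Tnf, Il1a and Il1b, had no count in any library. 0 of the 10 were called, and their median log2 fold change was -0.16. The targets Sod2, Icam1 and Nfkbia, the inhibitor that NF-kB induces in feedback, had log2 fold changes of 0.07, -0.17 and 0.06 with adjusted p of at least 0.391 (edgeR). Cxcl1, a chemokine gene named after its values were seen, had 3, 3 and 4 counts in ko clones 1, 2 and 3 and 1, 0 and 0 in wild type, a ratio of 12.4 (95% interval 1.76 to 537), and was not called in the fit without a filter (adjusted p = 0.164, edgeR).

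**Figure D3:**
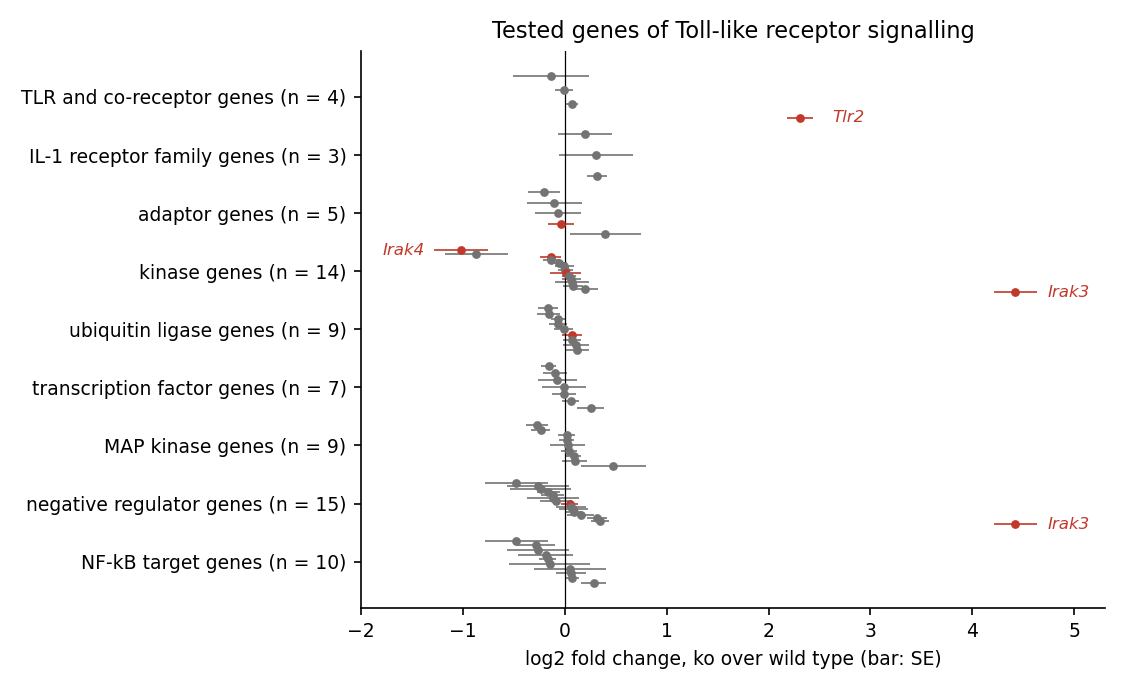
Fold change (log2, ko over wild type) of the tested genes of each pathway list, as points with bars of 1 SE and n, the number of tested genes, beside each list. Genes of the described group are red and the others grey, and a gene in several lists, such as Irak3, is drawn in each. Irak3 at 4.42 and Tlr2 at 2.31 stand to the right of all others, which lie between -1.02 and 0.48.

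Irak3 lies in a stretch of chromosome 10 with 5 further tested genes within 250 kb. Each had a higher mean in ko, beside a median log2 fold change of -0.0001 over all tested genes. The closest was Tmbim4, 6.7 kb upstream on the opposite strand, with a log2 fold change of 0.28 (SE 0.14, adjusted p = 0.407 by edgeR). Tmbim4 was at 19.22, 18.71 and 18.33 CPM in ko clones 1, 2 and 3 and at 16.22, 11.97 and 18.22 CPM in wild type. Its lowest ko value was thus barely above its highest wild-type value. Llph, 24.9 kb upstream, was at 34.7, 38.7 and 39.1 CPM in ko clones 1, 2 and 3 and at 27.0, 24.9 and 30.0 CPM in wild type, with a log2 fold change of 0.46 (SE 0.10, adjusted p = 0.0250 by edgeR). Hmga2, which encodes a chromatin-binding protein of embryonic cells, lies 159.1 kb upstream and was at 22.6, 22.4 and 25.8 CPM in ko clones 1, 2 and 3 and at 14.99, 14.21 and 17.3 CPM in wild type. Its log2 fold change was 0.61 (SE 0.11), and the adjusted p of 0.0114 (edgeR) was just above the threshold. Hmga2 was called under 4 of 14 alternative settings and Llph under 3.

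Helb, which encodes DNA helicase B and starts 28.6 kb beyond the end of Irak3 on the same strand (chromosome 10, 120083608 to 120113010), was the only neighbour of Irak3 that was called. It was at 161.9, 155.0 and 168.3 CPM in ko clones 1, 2 and 3 and at 120.9, 124.0 and 114.7 CPM in p42, p43 and p56. All ko values lay above all wild-type values, with means of 161.7 ± 6.62 and 119.9 ± 4.71 CPM (SD, n = 3) and a log2 fold change of 0.43 (SE 0.06). The Helb call was lost when ko clone 1, 2 or 3 or wild-type p42 was left out, with log2 fold changes between 0.40 and 0.46 over all alternatives. Helb overlaps Grip1, a neuronal scaffold gene on the opposite strand, over 3660 bp. Grip1 had 7 to 16 counts per library and a log2 fold change of 0.07 (SE 0.37, adjusted p = 0.961, edgeR). Without wild-type p56 the Grip1 value changed sign, to -0.19. Of the 5 neighbours, 4 had all ko values above all wild-type values, beside 9.67% of all tested genes, and the same holds for 3 of the 4 when Helb, which was chosen from this comparison, is left out.

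Around Tlr2 on chromosome 3, 3 further genes were tested within 250 kb. All 3 had a higher mean in ko, beside a median log2 fold change of -0.0001 over all tested genes. Of the 3, 2 (Sfrp2 and Mnd1) had all ko values above all wild-type values, beside 9.67% of all tested genes. Sfrp2, a secreted regulator of WNT signalling 62 kb downstream on the opposite strand, was at 7.022, 6.003 and 7.26 CPM in ko clones 1, 2 and 3 and at 2.03, 2.87 and 2.63 CPM in p42, p43 and p56. It rose with a log2 fold change of 1.43 (SE 0.19, adjusted p = 0.00135, edgeR), and its call was lost without ko clone 1 (log2 fold change 1.40) or ko clone 3 (1.37). D930015E06Rik, 56.4 kb upstream, had a log2 fold change of 0.07 (SE 0.12, adjusted p = 0.859, edgeR), which was -0.04 without wild-type p56. Mnd1, which encodes a meiotic recombination protein 246.1 kb upstream, had a log2 fold change of 0.24 (SE 0.08, adjusted p = 0.160, edgeR). Trim2, a ubiquitin ligase gene 318.6 kb away and named after its values were seen, rose with a log2 fold change of 0.48 (SE 0.07, adjusted p = 0.00409, edgeR). The Trim2 call was lost without ko clone 1, 2 or 3 or wild-type p42, with log2 fold changes of 0.50, 0.50, 0.45 and 0.51.

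**Figure D4:**
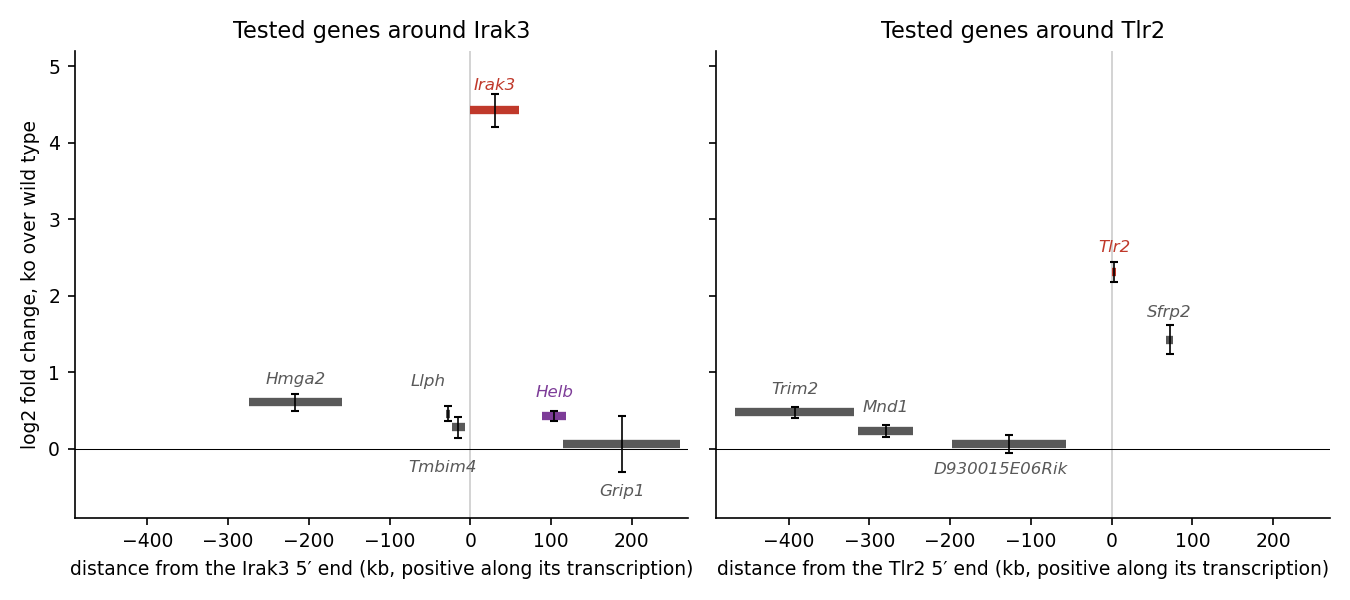
Fold change (log2, ko over wild type) of the tested genes around Irak3 (left) and Tlr2 (right), drawn over the span of each gene as distance in kb from the 5′ end of Irak3 or Tlr2, positive in its direction of transcription. Vertical bars are 1 SE, and Grip1 continues past the right edge. Irak3 at 4.42 and Tlr2 at 2.31 are above their neighbours, of which Sfrp2 at 1.43 is the highest.

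The genes whose pattern over the 6 libraries was most like that of Irak3 were found by the root mean square difference of log2 CPM, taken relative to the wild-type mean. They were Ube2l6, which encodes an ISG15-conjugating enzyme, at 0.33, Cd200, which encodes a surface ligand that restrains myeloid cells, at 0.41, the cholesterol exporter gene Abca1 at 0.60, the NMDA receptor gene Grin2c at 0.61 and LOC666331 at 0.63 log2 units, with log2 fold changes between 3.46 and 5.59. For Tlr2 they were Nuggc at 0.24, Tsx at 0.25, Nap1l2 at 0.26, Eps8 at 0.27 and Epha4 at 0.29 log2 units, with log2 fold changes between 1.96 and 2.82. None of the 10 is a gene of the TLR lists, and none lies on chromosome 10 or 3. The measure follows mainly the size of the fold change, so that this outcome says nothing about the pathway or the loci. The other genes of the TLR lists reached log2 fold changes of at most 0.48 and the tested neighbours at most 1.43, too low to be among the 10.

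Since Irak3 and Tlr2 are best known from macrophages, markers of leukocytes were examined in the same libraries. Of 12 leukocyte markers, the macrophage receptor genes Adgre1 (listed by its former symbol Emr1) and Csf1r and 4 others had no count in any library, and 5 had counts below the filter. Ptprc, which encodes the pan-leukocyte antigen CD45, had 3, 1 and 0 counts in ko clones 1, 2 and 3 and 0, 2 and 1 in wild type. Spi1, a myeloid transcription factor gene, had 1, 3 and 2 counts in ko clones 1, 2 and 3 and 4, 5 and 4 in wild type. The only tested marker, Cd68, had a log2 fold change of -0.07 (SE 0.15, adjusted p = 0.893, edgeR). The summed level of the list was 6.84 to 8.47 CPM in ko and 8.26 to 8.42 CPM in wild type. The fibroblast list summed to 7.68 to 8.41 CPM in ko and 12.4 to 13.7 CPM in wild type, mostly from its 2 tested genes of 12. Of these, Thy1, with means of 4.797 CPM in ko and 8.705 CPM in wild type, was called lower (log2 fold change -0.86, SE 0.14, adjusted p = 0.0064, edgeR). Pdgfrb, with means of 2.237 CPM in ko and 3.013 CPM in wild type, was not called. The other genes of the list had too few counts to be tested. The endoderm list had 3 of 11 genes tested, and Col4a1, a basement membrane collagen gene, was called lower in ko (log2 fold change -0.90, SE 0.08, adjusted p = 6e-05, edgeR), with a summed level of 276.3 to 309.7 CPM in ko and 287.3 to 314.9 CPM in wild type. Of the 12 mesoderm and ectoderm markers, 5 were tested and 0 called by edgeR, DESeq2, limma-voom or edgeR without a filter, with 1 at an unadjusted p under 0.05. The part of these markers in the results was not tested.

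Reads of the opposite strand were too few to add to the members' counts. The 10 genes together had 12 opposite-strand counts in the ko libraries and 16 in the wild-type libraries, and Irak3 had 1, 0 and 3 in ko clones 1, 2 and 3 and 0 in each wild-type library.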

How the data were processed

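From DNase-treated total RNA depleted of ribosomal RNA, the authors prepared strand-specific libraries and aligned the reads to mm10 (GRCm38) with STAR. The gene annotation is not given in the sources used here. The deposited files hold raw counts per gene and library, without normalization or pooling, and the sense-strand column was used. STAR counts a read only when it maps to 1 place and overlaps 1 gene.

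The 10 genes, the pathway and marker lists and the tests were chosen with earlier results of these data known. Counts were tested with edgeR 4.0.16 in R 4.3.3 (quasi-likelihood, TMM scaling, filterByExpr with a minimum count of 10, group as the only term), with two-sided p-values adjusted by Benjamini-Hochberg over 12222 genes, a threshold of 0.01 and a prior count of 0.125. The SE is the log2 fold change divided by the square root of F. CPM used TMM-scaled library sizes. The fits were first checked on simulated counts. The ko replicates are separate clones and the wild-type replicates cultures of 1 line, so that p-values measure the spread between these libraries. DESeq2 1.42.0 and limma 3.58.1 served as alternatives. The intervals of count ratios are Clopper-Pearson intervals (scipy 1.17.1).

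Gene spans came from a RefSeq table and exon lengths from GENCODE, both for GRCm38. Of the rows, 22542 matched on the symbol, 1352 on a former symbol and 160 had no match. All 10 genes had a window in the RefSeq promoter table. Named genes were the 10 genes, any called pathway gene, up to 3 tested genes with the highest mean CPM per pathway list, tested genes within 250 kb of Irak3 or Tlr2, the 5 genes most like each of them (log2 CPM with a prior count of 2), Morc3 and leading markers.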

Additional observations from a re-analysis of the deposited data

How the results depend on the processing

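Each result was recomputed with DESeq2, limma-voom, robust dispersion, RLE or total-count scaling, no filter or a CPM filter, counts that ignore strand, an adjusted p under 0.05 and each library left out. 156 genes were called, but 254 with DESeq2, 286 without a filter, 331 at an adjusted p under 0.05 and between 72 and 385 with a library left out (96, 73 and 72 without ko clone 1, 2 or 3 and 385 without wild-type p56). The cause of these changes was not tested, beyond the wider threshold itself. None of the pathway genes outside the group was called under any of these alternatives. The wider threshold was applied to the main fit only, and all other alternatives used an adjusted p under 0.01. Rnf216 and Sigirr fell below 0.05 under some of them, with smallest adjusted p of 0.0327 and 0.0377 (both by edgeR without wild-type p56). Of 651 recomputed values, 629 were rated the same as the main value, and 0 called values changed sign. Values rated the same could still differ in size. Among them were the log2 fold change of Unc93b1, -0.13 in the main fit and -0.58 without ko clone 1, and the 106 genes called without wild-type p42. The rating took no account of a change of sign in genes that were not called. For the genes of the group it also took no account of calls, and the Helb call was lost without ko clone 1, 2 or 3 or wild-type p42. 32 values of 15 genes that were not called changed sign, among them Irak2, Myd88 and Tollip. The log2 fold change ranged between 4.12 and 4.65 for Irak3 and between 2.28 and 2.34 for Tlr2. Over the alternatives, the adjusted p ranged between 0.00022 and 0.0925 for Hmga2 (called in 4 of 14), 0.00055 and 0.155 for Llph (called in 3), 2.3e-05 and 0.0173 for Sfrp2 (called in 12) and 1.5e-05 and 0.0444 for Trim2 (called in 10). By the longest transcript, Irak3 was the 3rd and Tlr2 the 4th gene in ko. No paired analysis was possible because ko and wild-type libraries share no replicate numbers in the labels. Low counts limit Tlr3, Irak4, Cxcl1 and wild-type Irak3.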
